A study of Nicotiana tabacum with 36 samples.

Results

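Nitab4.5_0003259g0030 is a single tobacco (Nicotiana tabacum) gene model, 1 of the 35519 in the count and TPM tables, and 1 of the 23740 with enough reads to be tested. It was selected on values of these same libraries: the study listed it among the transcription factors that differed between 2 cultivars at every time point, named it a hub of its brown co-expression module, and chose it for qRT-PCR. Its difference between the cultivars is therefore given as a description without a test. The 36 libraries were made from leaves of seedlings at the five-leaf stage. The cultivars were Taiyan8 (TT), which is cold-susceptible, and Yanyan97 (YT), which resists cold. Each was sampled at 0 h (CK) and after 0.5, 1, 2, 4 and 8 h at 4 °C, with 3 biological replicates in each of the 12 groups. All seedlings grew on 1/2 MS medium under long days before the cold, and the labels and the methods of the study give different growth temperatures. No plants left warm until each sampling time were compared here, so cold and time of day cannot be told apart in any comparison with 0 h.

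The name of the gene rests on one column of the study's tables. That column places it in the family ABI3VP1, whereas the description beside it, transferred from tomato, reads F-box family protein with a cyclin-like F-box, and no Arabidopsis gene is matched to it. ABI3 of Arabidopsis and VP1 of maize are transcription factors with a B3 DNA-binding domain that act in abscisic acid signalling, best known from seed maturation and dormancy. Abscisic acid is also a hormone of drought and cold responses in leaves: its receptors block protein phosphatases of the PP2C group, which frees kinases that activate transcription factors. F-box proteins work elsewhere, as the part of SCF ubiquitin ligases that recognises the protein to be degraded. Which description fits the protein was not tested, and the gene is called by its identifier here.

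In the Nitab-v4.5 gene models the gene lies on the minus strand of chromosome 5, from 101917122 to 101929519, a span of 12398 bases with 8 exons that add up to 1989 bases. The only sequences of it at hand are the 2 primers that the study designed for qRT-PCR. They are shown because they define the stretch of transcript that the study measured a second way. The paper reports that qRT-PCR followed the RNA-seq trend for some of its brown-module genes and differed for the others. Whether Nitab4.5_0003259g0030 followed it was not examined here. The primers are written 5′ to 3′ in lower case, with no part singled out, and their position within the gene model was not analysed here.
Forward primer: tgctgtgcttacccagaatgt
Reverse primer: acccacttcttacctgccct

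Library totals ran from 15484160 to 26691552 reads on genes, and the lowest was replicate 3 of YT at 4 h, the next lowest having 22239372. The gene itself was well covered, with 118 to 314 reads in the 18 TT libraries and 386 to 744 in the 18 YT libraries. Its mean TPM over all libraries was 7.69, above that of 60.3% of the genes in the files.

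The transcript was more abundant in YT than in TT at every time point, before the cold as well as during it. Levels are given first as CPM, the reads of a gene relative to the total of its library, scaled with TMM factors. At 0 h the TT libraries held 10.3, 9.52 and 12.2 CPM. At 0 h the YT libraries held 22.6, 20.1 and 22.1 CPM. The groups did not overlap, and the mean was 2.03 times as high in YT (21.6 ± 1.29 against 10.7 ± 1.37 CPM, SD, n = 3 each). In bulk leaf RNA, fewer cells that express the gene and less transcript per cell cannot be told apart. Both cultivars were mapped to the same genome, and whether their reads mapped equally well to a gene was not tested.

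During the cold the TT levels stayed between 6.17 and 11.2 CPM. TT libraries held 9.25, 9.03 and 9.87 CPM at 0.5 h. At 1 h they held 10.9, 10.5 and 9.43 CPM. At 2 h they held 8.11, 6.17 and 11.2 CPM, the widest spread of any TT group (SD 2.56). At 4 h they held 9.18, 8.83 and 8.34 CPM. At 8 h they held 7.39, 8.02 and 7.47 CPM, the lowest mean of all 12 groups (7.63 ± 0.34 CPM, SD, n = 3), and these 3 libraries as well as the 3 at 4 h lay below every TT library at 0 h.

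The YT levels stayed between 18.3 and 29.9 CPM during the cold. YT libraries held 21.4, 24.1 and 20.9 CPM at 0.5 h. At 1 h they held 26.8, 25.1 and 23.6 CPM, all above the 3 libraries at 0 h. At 2 h they held 23.3, 21.02 and 23.7 CPM. At 4 h they held 24.9, 18.3 and 24.9 CPM. In that group replicate 2 was the low one. At 8 h they held 26.6, 29.9 and 23.7 CPM, the highest mean of all groups (26.7 ± 3.13 CPM, SD, n = 3), again above every YT library at 0 h.

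**Figure D1:**
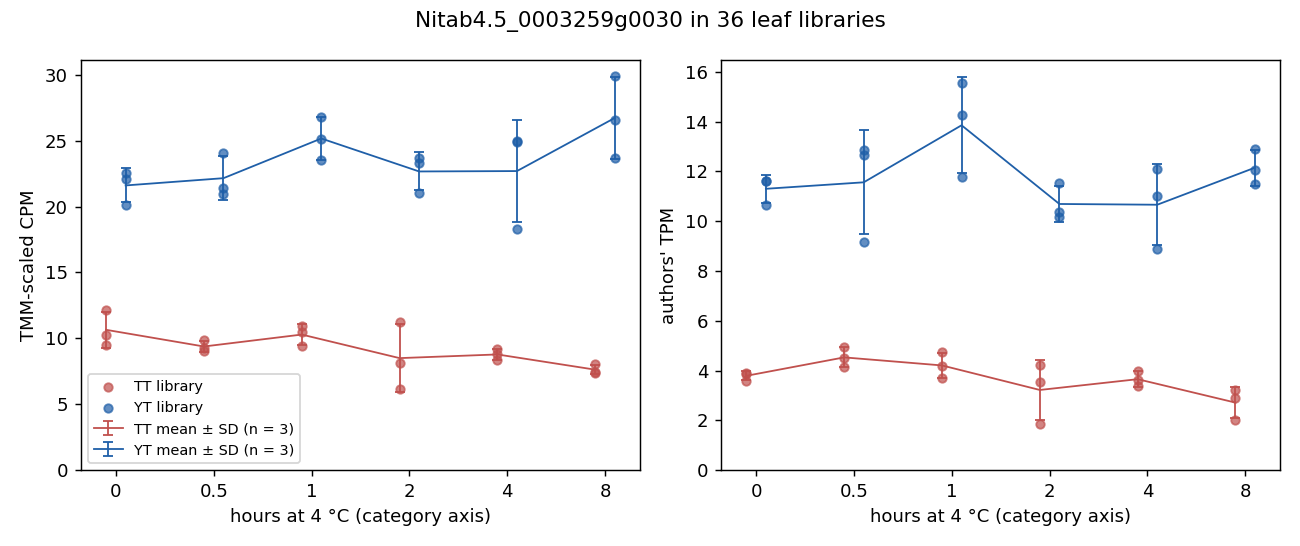
Level of Nitab4.5_0003259g0030 by hours at 4 °C, as TMM-scaled CPM (left) and as the TPM values deposited by the authors (right); points are libraries, lines join group means, and bars are the SD of 3 libraries. Every YT library lies above every TT library on both scales.

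Ordered by mean CPM, the 6 YT groups came first and the 6 TT groups last. Each group's range overlapped that of the next lower group, except where YT at 0 h met TT at 0 h, so within a cultivar no group stood apart from its neighbour in this order. Over the 6 groups of a cultivar the highest mean was 1.40 times the lowest in TT and 1.24 times in YT. From 0.5 to 8 h the successive ratios of YT to TT were 2.36, 2.44, 2.67, 2.58 and 3.503. The lowest YT library stood above the highest TT library by 1.65 times at 0 h and by 2.95 times at 8 h.

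The TPM values, which the authors scaled by transcript length with another program, gave larger ratios and another order within the cultivars. They do not carry the TMM factors of the CPM, which at 0 h were 0.893 to 0.977 in TT and 1.05 to 1.12 in YT. What made the scales differ was not tested. TPM was 3.79 ± 0.17 in TT and 11.3 ± 0.55 in YT at 0 h, a ratio of 2.98 (SD, n = 3 each). At 8 h TPM was 2.71 ± 0.61 in TT and 12.2 ± 0.72 in YT, a ratio of 4.48. In YT the highest mean TPM was at 1 h, with 13.9 ± 1.92, and not at 8 h. In TT it was at 0.5 h, with 4.53 ± 0.40, and not at 0 h. The TPM labels taken as 0.5 h lack the leading 0 and the decimal point. They were matched to it as the only time left without values. No TT library exceeded 4.94 TPM and no YT library was below 8.88 TPM, so the cultivars did not overlap on this scale either.

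In the edgeR model of all 36 libraries the log2 fold change of YT over TT was 1.02 before the cold. After 0.5, 1, 2, 4 and 8 h it was 1.24, 1.29, 1.41, 1.37 and 1.81 in turn, each with an SE of 0.16. A gene is called here when its log2 fold change exceeds 1 in size and its Benjamini-Hochberg adjusted p is under 0.05, the thresholds of the study's methods. The value at 0 h lies just inside that fold limit, and between 0.94 and 1.13 when single libraries are left out. Among all genes tested, the shares called YT-higher were 3.48%, 1.83%, 2.45%, 2.67%, 4.17% and 1.98% in the order of the 6 time points. Since this contrast chose the gene, nothing is read from these shares.

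Within a cultivar the gene stayed close to its level at 0 h. The question here is whether 4 °C changed the transcript against 0 h within a cultivar. The paper describes the genes of its network as changed after cold in TT or YT, and in its discussion as differing between the cultivars. The choice of the gene may thus not have been wholly separate from this contrast either. A cultivar gap in these same libraries also chose the gene, so its p-values here are not independent of that choice. In none of the 10 comparisons was the gene called. In TT the log2 fold change was -0.18 at 0.5 h (SE 0.16, adjusted p = 0.459), -0.05 at 1 h (SE 0.16, adjusted p = 0.87), -0.32 at 2 h (SE 0.16, adjusted p = 0.118) and -0.28 at 4 h (SE 0.16, adjusted p = 0.173). At 8 h in TT it was -0.48 (SE 0.16, adjusted p = 0.0149), which passed the limit on p but not that on fold. This was the one cold comparison of the gene with an adjusted p under 0.05. Without replicate 3 of TT at 0 h, the highest library of its group, it was -0.38 with an adjusted p of 0.0879, and on log2(TPM + 1) it was -0.38 with an adjusted p of 0.123 (limma).

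In YT the log2 fold change was 0.04 at 0.5 h (SE 0.15, adjusted p = 0.969), 0.22 at 1 h (SE 0.15, adjusted p = 0.522), 0.07 at 2 h (SE 0.15, adjusted p = 0.839), 0.07 at 4 h (SE 0.15, adjusted p = 0.799) and 0.31 at 8 h (SE 0.15, adjusted p = 0.127). On CPM the 3 YT libraries at 1 h and at 8 h lay above those at 0 h without overlap, but neither difference passed the test across all genes. Among all genes tested in TT, the shares called in either direction were 6.30%, 7.45%, 14.4%, 15.5% and 21.2% in the order of the 5 times of cold. In YT the shares were 1.57%, 3.93%, 7.91%, 12.6% and 17.3% at the same times. The gene stayed within 0.48 log2 units of its level at 0 h.

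The gap between the cultivars was wider at 8 h than at 0 h. The gene was chosen on the cultivar values of both times, so this difference of responses is a description and no p is given for it. The response of YT minus that of TT was 0.79 on the log2 scale at 8 h (SE 0.22), under the fold limit. TT had fallen from 10.7 to 7.63 CPM and the YT mean stood at 26.7 against 21.6 CPM. At the earlier times this difference of responses was 0.22, 0.27, 0.39 and 0.35 in order of time, each with an SE of 0.22 and against the same 0 h libraries. On log2(TPM + 1) the sign turned at 0.5 h (-0.19) and at 4 h (-0.043), while it was 0.48 at 8 h. Among all genes, the shares called in either direction in this comparison were 1.57%, 0.114%, 1.98%, 0.918% and 4.55% in the same order of times. Nothing is read from these shares. Without replicate 2 of YT at 8 h, the highest library, the value was 0.70.

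**Figure D2:**
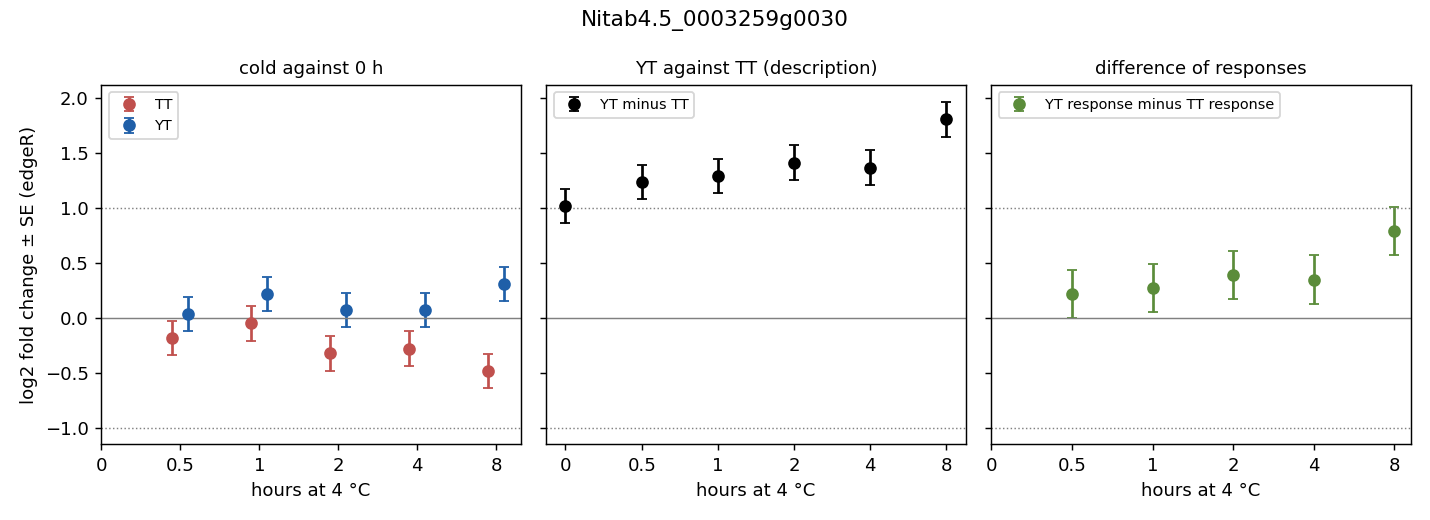
Log2 fold changes of Nitab4.5_0003259g0030 with SE from the edgeR model, by hours at 4 °C: cold against 0 h in each cultivar (left), YT over TT (middle) and the response of YT minus that of TT (right); dotted lines mark the fold limit of 1. The cold effects stay between -0.48 and 0.31, YT over TT runs from 1.02 to 1.81, and the difference of responses reaches 0.79 at 8 h.

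The neighbours of the gene on the chromosome were chosen by position and not by their own values, so their cultivar difference was tested. That position is the one of a gene chosen on this contrast, so these tests are not wholly separate from the choice. Of the 10 gene models on either side 12 had enough reads. At each time point 1 of these 12 was called YT-higher, and it was the same gene every time: Nitab4.5_0003259g0020, on the minus strand from 101937223 to 101939243. It lies 7.70 kb from Nitab4.5_0003259g0030 at higher coordinates, which is upstream on this strand. The tables of the study do not describe it. Apart from Nitab4.5_0003259g0030, which was chosen for that pattern, it was the one gene among the 575 tested on chromosome 5 that was called YT-higher at all 6 times. Over the genome 154 of 23740 genes were, the chosen gene included.

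At 0 h Nitab4.5_0003259g0020 held 1.66, 2.89 and 2.13 CPM in TT. In YT at 0 h it held 7.02, 8.87 and 8.83 CPM. The log2 fold change of YT over TT was 1.89 at 0 h (SE 0.38, adjusted p = 0.000911), with no overlap. It was 2.03 at 1 h (SE 0.38, adjusted p = 0.00038) and 1.94 at 2 h (SE 0.38, adjusted p = 0.000838). For 0.5, 4 and 8 h it was 1.18, 1.22 and 1.21, with adjusted p of 0.0426, 0.0252 and 0.0357. These 3 calls were less firm. At 0.5 h replicate 3 of YT held 3.02 CPM, just below the TT range of 3.04 to 3.64, against 10.4 and 8.96 in the other YT libraries. At 8 h replicate 2 of YT held 4.35 CPM, within the TT range of 3.30 to 5.57, against 11.98 and 12.4. When single libraries were left out, the calls at 0, 1 and 2 h held in all 36 fits, while those at 0.5, 4 and 8 h held in 31, 32 and 32. The adjusted p then reached 0.208 at 0.5 h, 0.11 at 4 h and 0.15 at 8 h. The libraries whose loss ended a call were of the time point itself: all 3 of TT and replicates 1 and 2 of YT at 0.5 h, replicates 1 and 2 of TT and 2 and 3 of YT at 4 h, and replicates 1 and 2 of TT and 1 and 3 of YT at 8 h. Of 7 other settings, 3 kept the call at 0.5 h, 6 kept that of 4 h and 4 that of 8 h. All 7 kept those at 0, 1 and 2 h. Limma on log2(TPM + 0.1) lost all 3 of the less firm calls.

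Between the pair lies Nitab4.5_0003259g0010, also on the minus strand, from 101931596 to 101934316, at a distance of 2.08 kb from Nitab4.5_0003259g0030. It was barely expressed, with 0 to 24 reads in TT and 2 to 57 in YT. Its mean was higher in YT at every time, with a log2 fold change of 0.93 at 0.5 h at the least and 2.82 at 1 h at the most, but it passed the test at none (at 1 h SE 0.96, adjusted p = 0.0545). Of the 7 other settings 3 called it at 1 h and 2 at 2 h, DESeq2 among them both times. It was also called at 1 h in 5 of the 36 fits without 1 library, namely replicate 2 of TT at 1, 2 or 8 h, replicate 3 of TT at 8 h or replicate 2 of YT at 8 h. The counting used no strand information.

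On the next gene model the direction turned. Nitab4.5_0003259g0070, on the plus strand from 101979877 to 101983995, 50.4 kb away, was lower in YT. At 0 h its TT libraries lay between 95.9 and 105.0 CPM (mean 100.3 ± 4.57, SD, n = 3). Those of YT held 43.2, 45.4 and 43.3 CPM. The log2 fold change was -1.19 at 0 h (SE 0.22, adjusted p = 0.000417) and -1.30 at 1 h (SE 0.22, adjusted p = 0.000146), and it was called TT-higher at these 2 times. In both limma fits on TPM the call at 0 h was lost, and 5 of 7 other settings kept it, while all 7 kept that at 1 h. At the other times it ran from -0.84 to -0.59 and was not called. Nitab4.5_0003259g0090 was called TT-higher at 2 h, with -1.12 (SE 0.28, adjusted p = 0.00887). Of 7 other settings 4 kept this call; it was lost in both limma fits on TPM, in a fit of only the libraries compared, and without replicate 1 of YT at 2 h (-0.92, adjusted p = 0.0739). In either direction, 2 of the 12 neighbours were called at 0, 1 and 2 h, and 1 of 12 at 0.5, 4 and 8 h. Over all genes, the shares called in either direction were 6.09%, 4.52%, 5.24%, 4.89%, 6.74% and 3.90% in the order of the 6 time points.

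Of the 13 gene models on the scaffold of the gene, those not yet described showed no call. Nitab4.5_0003259g0080 had up to 18544 reads in a library and ran from -0.80 at 0 h to 0.34 at 8 h. Nitab4.5_0003259g0110, Nitab4.5_0003259g0120 and Nitab4.5_0003259g0130 were tested and not called at any time. Nitab4.5_0003259g0100 on the same side and, on the other side, Nitab4.5_0003259g0060, 3.92 kb away, Nitab4.5_0003259g0040 and Nitab4.5_0003259g0050 had at most 10 reads in any library and were not tested. Outside the scaffold, the nearest models were Nitab4.5_0004131g0010, 786 kb away, which ran from -0.32 to 0.04 and was not called, and Nitab4.5_0002180g0060, 1241 kb away, with 0 reads in every library. The median log2 fold change of the 12 neighbours lay between -0.12 and 0.28 at the 6 times, beside a median of all genes between -0.02 and 0.01.

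**Figure D3:**
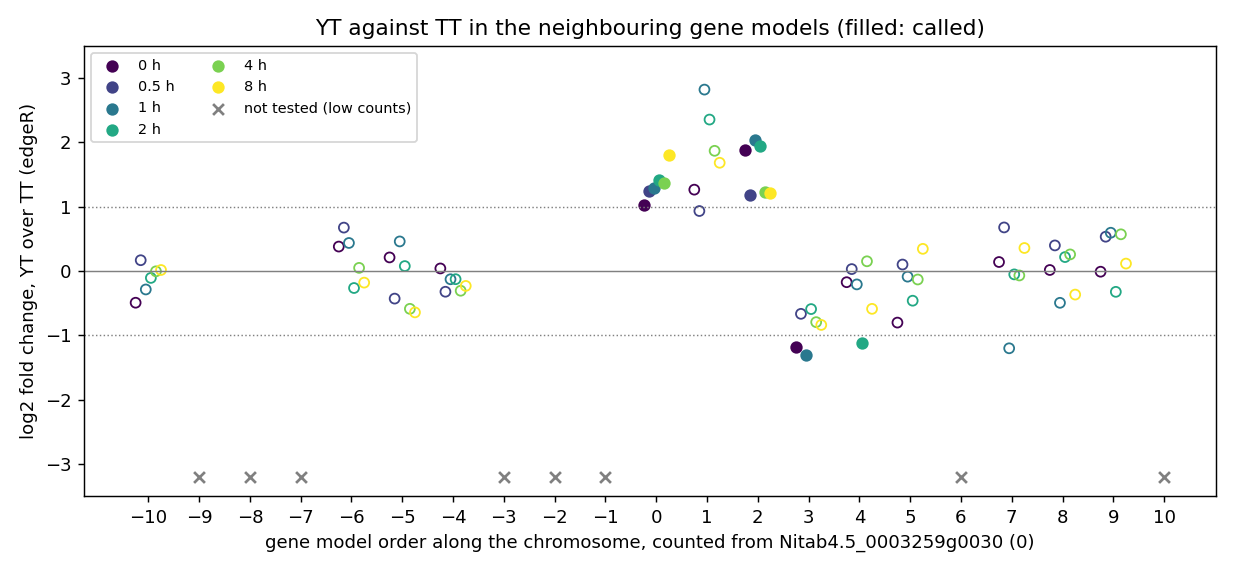
Log2 fold change of YT over TT at the 6 time points for Nitab4.5_0003259g0030 (position 0) and the 10 gene models on either side, in their order along the chromosome; filled points are called, open points are not, and crosses are models with too few reads. Position 2 is called YT-higher at all 6 times, and position 3 is called TT-higher at 0 and 1 h. Position 0 is filled as well, but it was chosen on this contrast, so its points are a description.

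The tables of the study give the family ABI3VP1 to 2 further genes, Nitab4.5_0000799g0050 on chromosome 15 and Nitab4.5_0000573g0030 on chromosome 10, which they list for changing in the cold, so their rise is a description, and so is any contrast between them and the gene chosen for its cultivar difference. Nitab4.5_0000799g0050 held 3.97, 5.75 and 5.93 CPM in TT at 0 h. In TT at 8 h it held 8.54, 22.5 and 20.2 CPM, a log2 fold change of 1.71 (SE 0.33). In YT it went from 5.30, 3.84 and 4.38 CPM at 0 h to 16.1, 11.8 and 12.7 CPM at 8 h, a log2 fold change of 1.59 (SE 0.33). Nitab4.5_0000573g0030 held 8.53, 8.98 and 5.70 CPM in TT at 0 h. In TT at 8 h it held 30.9, 21.1 and 22.6 CPM, a log2 fold change of 1.69 (SE 0.22). In YT it went from 8.51, 7.61 and 8.26 CPM to 25.2, 22.7 and 19.5 CPM, a log2 fold change of 1.47 (SE 0.22).

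Both were called higher than at 0 h at all 5 times in TT. In YT both were called at 1, 4 and 8 h, Nitab4.5_0000573g0030 also at 2 h, and neither at 0.5 h. Between the cultivars neither was called at any of the 6 times, with log2 fold changes of YT over TT from -0.87 to -0.21 for Nitab4.5_0000799g0050 and from -0.31 to 0.29 for Nitab4.5_0000573g0030. The largest of these differences in size were -0.77 at 2 h and -0.87 at 4 h for Nitab4.5_0000799g0050, and at 2 h its cultivars did not overlap. Per length, mean TPM was 3.69 in TT and 11.7 in YT for Nitab4.5_0003259g0030, 12.1 and 9.19 for Nitab4.5_0000799g0050, and 20.9 and 22.3 for Nitab4.5_0000573g0030.

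**Figure D4:**
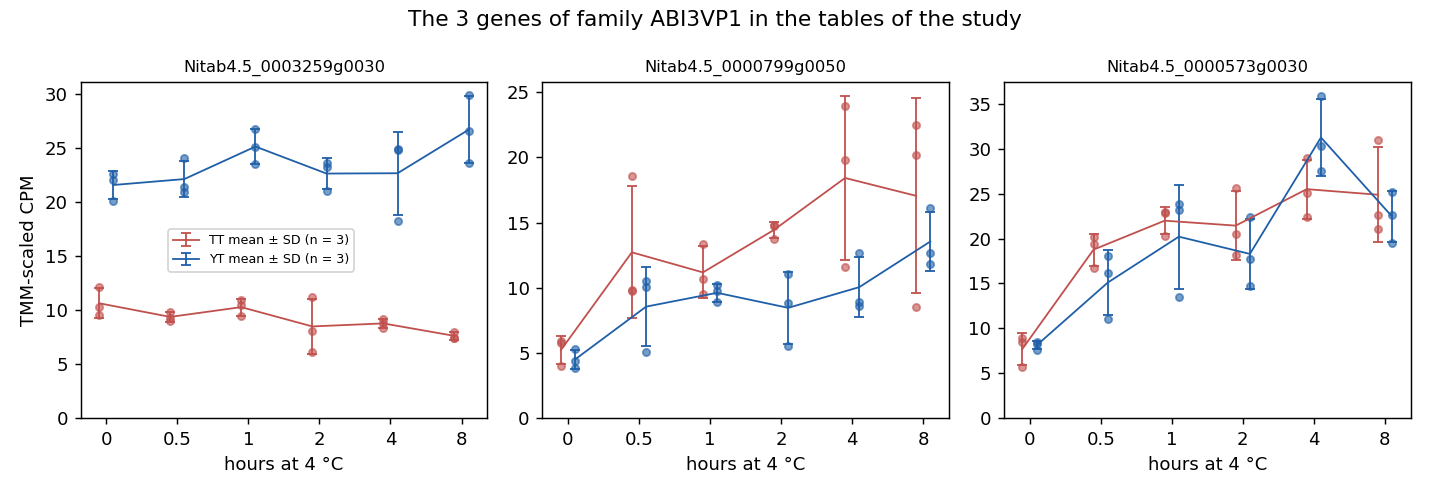
TMM-scaled CPM of the 3 genes that the tables of the study place in the family ABI3VP1, by hours at 4 °C, with a scale of its own in each panel; points are libraries, lines join group means and bars are the SD of 3 libraries. Nitab4.5_0003259g0030 separates the cultivars at every time, the other 2 genes rise from 0 h in both cultivars, and Nitab4.5_0000799g0050 has its widest gap at 4 h, with 18.4 CPM in TT and 10.05 in YT.

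The F-box gene in the tables of the study, Nitab4.5_0000140g0190, annotated as PP2-A13, followed yet another course. It held 15.4, 19.7 and 18.03 CPM in TT at 0 h. At 0.5 h in TT it held 89.7, 103.3 and 132.7 CPM, and at 8 h 27.2, 13.2 and 22.96 CPM. In YT its mean went from 14.9 ± 0.61 CPM at 0 h to 56.9 ± 8.50 at 0.5 h and 19.3 ± 5.46 at 8 h (SD, n = 3 each). It was thus high early and back near its level at 0 h by 8 h in both cultivars, a course that Nitab4.5_0003259g0030 did not have.

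The tables of the study, which chose its genes on these libraries, hold 4 genes of abscisic acid signalling or breakdown. CYP707A1 (Nitab4.5_0000532g0070), named for the Arabidopsis enzyme that breaks the hormone down, went from 3.32 ± 0.51 CPM at 0 h to 286.7 ± 95.5 at 0.5 h in TT (SD, n = 3 each). In YT it went from 7.80 ± 1.51 to 83.2 ± 16.3 CPM. The PP2C family gene Nitab4.5_0002017g0040 went from 15.3 ± 3.24 to 314.0 ± 89.6 CPM in TT and from 21.8 ± 3.44 to 145.1 ± 36.5 in YT. PP2C phosphatases are negative regulators of abscisic acid signalling in Arabidopsis, although not every member of that large family acts in it. Both genes were called higher than at 0 h at all 5 times in both cultivars. Between the cultivars both were called TT-higher at 0.5 h, with log2 fold changes of -1.79 for CYP707A1 and -1.11 for the PP2C gene, and the latter also at 2 h (-1.10).

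The other 2 were higher in YT. RD22 (Nitab4.5_0001133g0020), named for an Arabidopsis gene induced by dehydration and abscisic acid, held 108.6, 139.7 and 101.6 CPM in TT and 573.9, 697.5 and 805.4 CPM in YT at 0 h. It was called lower than at 0 h in TT at 1, 2 and 8 h, reaching 33.8 ± 6.98 CPM at 8 h, and it was not called at any time in YT (553.7 ± 114.4 CPM at 8 h). The difference of its responses at 8 h was 1.47 (SE 0.42), beside the 0.79 of Nitab4.5_0003259g0030. The PP2C family gene Nitab4.5_0000363g0030 had 0 to 16 reads in the TT libraries, 10 of which held 3 or fewer, and 329 to 893 reads in every YT library. Of the 4 abscisic acid genes, 2 were called YT-higher at every time, as were 154 of all 23740 genes tested. These 2, RD22 and Nitab4.5_0000363g0030, are also hub genes of the brown module, so their cultivar difference is a description. The other 2 were called TT-higher at 0.5 h and 1 of them at 2 h, where 4.52% and 4.89% of all genes were called in either direction.

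In the brown module the 49 other hub genes of the study's list were all tested, and the study chose them for their number of strong links in the network of that module, which it built on these libraries. Their counts are therefore a description. At 0 h 33 were called YT-higher and 11 TT-higher, where 6.09% of all genes were called in either direction. At all 6 times 33 were YT-higher and 10 TT-higher, as were 154 and 101 of the 23740 genes tested. Nitab4.5_0003259g0030 had one of the smaller cultivar differences among them: 44 of the 49 had a larger log2 fold change in size at 0 h, and 38 of 49 at 8 h. The median size over the 49 was 3.07 at 0 h and 3.13 at 8 h, against 1.02 and 1.81 for the gene. Against 0 h, 6 of 49 were called at 2 h in TT, where 14.4% of all genes were. At 8 h 4 of 49 were called in TT and 2 of 49 in YT, beside 21.2% and 17.3% of all genes.

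The other 2 transcription factors among the hubs differed more between the cultivars. WRKY21 (Nitab4.5_0000627g0060), of a family of factors with roles in stress and defence, had 32 to 84 reads in TT libraries and 526 to 972 in YT libraries. ARR12 (Nitab4.5_0002315g0010), a response regulator of cytokinin signalling in Arabidopsis, ran the other way, with 279 to 597 reads in TT and 0 to 4 in YT. ARR12 thus had almost no mapped reads in YT, whereas WRKY21 and Nitab4.5_0003259g0030 were read in every library.

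Likeness in pattern was measured by Pearson's r of log2 CPM over the 36 libraries, among the 20414 tested genes whose mean reached 1 CPM. Each library adds 1 point, and the points form 2 clusters, the cultivars, so this r mostly orders genes by how cleanly they separate TT from YT. It is given without a p. The 38 hub genes with a positive r ran from 0.86 to 0.96, and the 11 with a negative r from -0.95 to -0.91. The median size of r was 0.93 over the hubs and 0.21 over all genes. The 5 highest were Nitab4.5_0000363g0020 (0.96), annotated as a homologue of the nitrogen regulatory protein PII, Nitab4.5_0003952g0070 (0.96), Nitab4.5_0000143g0350 (0.96), annotated as a class I tRNA synthetase, Nitab4.5_0001553g0060 (0.96) and Nitab4.5_0001068g0070 (0.95). The 3 lowest were Nitab4.5_0002315g0180 (-0.96), Nitab4.5_0000051g0340 (-0.95) and Nitab4.5_0003395g0040 (-0.95). Of the 5 highest, 0 stayed among the 5 highest with Spearman's rho and 1 with log2(TPM + 1), and all 5 stayed among the 100 highest on both.

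Of these 8, all but the tRNA synthetase were nearly absent in one cultivar. Nitab4.5_0000363g0020, for instance, had 3 to 19 reads in TT and 648 to 1189 in YT, while the tRNA synthetase had 268 to 1010 and 2253 to 5158. None of the 8 lies on chromosome 5, and neither does any of the 49 hub genes. Of the hub genes, 16 lie on chromosome 17 and 13 on chromosome 11, and 12 of the latter sit on the scaffold of the tRNA synthetase Nitab4.5_0000143g0350.

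Once the mean of each cultivar was subtracted from its libraries, the likeness to the hub genes was mostly gone. Over the 49 hub genes r then ran from -0.42 to 0.47 with a median of 0.10, and its median size was 0.18, beside 0.15 over all genes. The highest of all genes were now Nitab4.5_0000410g0370 (0.63), Nitab4.5_0001691g0010 (0.62), Nitab4.5_0003912g0010 (0.61), Nitab4.5_0000357g0210 (0.61) and Nitab4.5_0000065g0060 (0.61), and the lowest Nitab4.5_0001467g0050 (-0.74), Nitab4.5_0000170g0080 (-0.59) and Nitab4.5_0000293g0120 (-0.59). None of these 8 is a hub gene, and none is described in the tables of the study. With Spearman's rho 1 of the 5 highest stayed among the 5 highest, and with log2(TPM + 1) likewise 1. Nitab4.5_0003259g0030 had its lowest value of all 36 libraries, 6.17 CPM, in replicate 2 of TT at 2 h. That library also had the lowest TMM factor (0.797). The 5 genes with the highest r had their lowest TT level in CPM there too. No r was computed without that library, so its weight in this ranking was not tested.

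**Figure D5:**
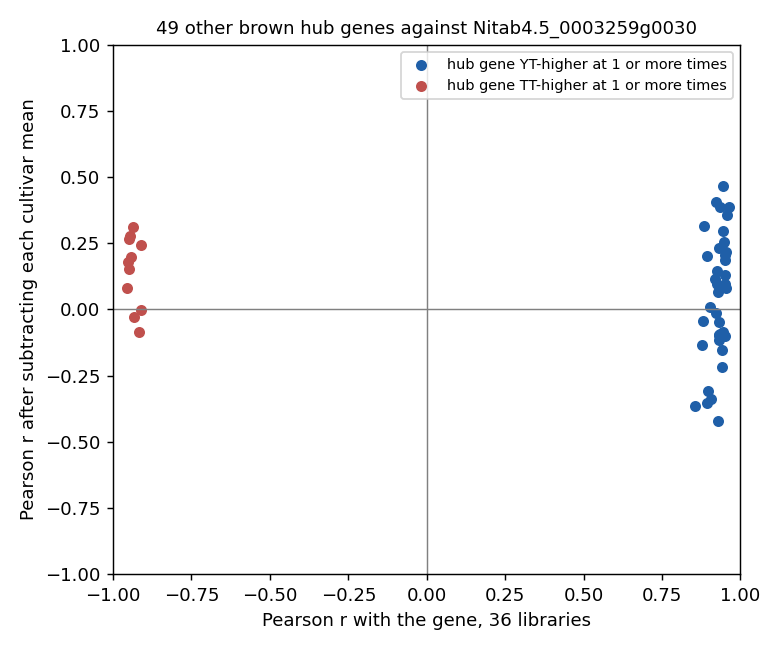
Pearson's r with Nitab4.5_0003259g0030 for the 49 other hub genes of the brown module, over all 36 libraries (horizontal) and after the mean of each cultivar was subtracted (vertical). Horizontally the genes sit at 0.86 to 0.96 or at -0.95 to -0.91, and vertically they spread from -0.42 to 0.47.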

How the data were processed

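The authors trimmed reads with Trim Galore 0.6.4, mapped both cultivars to one tobacco genome with HISAT2 2.0.5, dropped alignments of mapping quality below 20 and counted reads per gene on the Nitab-v4.5 models with featureCounts 1.6.4, unstranded. The deposited counts are raw. StringTie 1.3.4d gave the TPM that the authors deposited. The Length column of the authors, another deposited value, gave exon lengths. Counts were filtered with filterByExpr, scaled by TMM and fitted with edgeR 4.0.16 (R 4.3.3) in one quasi-likelihood model of 12 groups. Two-sided p-values were adjusted over all 23740 genes per contrast. The 12 groups, of 3 libraries each, shared one estimate of the spread of a gene. A call therefore does not rest on the spread of the compared groups alone. A prior count of 2 entered log2 CPM. The study's methods name DESeq2 for this step. It was tried as an alternative (DESeq2 1.42.0), as were limma 3.58.1 on log2(TPM + 1) and log2(TPM + 0.1), other size factors, no filter, only the libraries compared, a replicate block and leaving out each library. The members, lists and tests were chosen with earlier results of these data known. Named genes were the gene, the study's ABI3VP1, abscisic acid, F-box and hub transcription factor genes, the models of its scaffold with the nearest on either side, and the 5 highest and 3 lowest r. In simulated counts, where 200 genes were changed in YT at 8 h, 194 of them were tested; edgeR called 130 in the right direction for 8 h against 0 h in YT and 104 for the difference of responses at 8 h, with 2 and 3 false calls among 23425 genes. At a simulated log2 size of 1.5 the latter recovered 40 of 97. Python 3.11.15 drew the plots. The authors' network and qRT-PCR data were not used.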

Additional observations from a re-analysis of the deposited data

Results flagged for a closer look

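From 0 to 8 h the difference of responses of Nitab4.5_0003259g0030 was 0.79 on the log2 scale, YT minus TT (SE 0.22). It lay under the fold limit of 1. Since the gene was chosen on its cultivar values at both times, this difference is a description without a p. The mean fell from 10.7 to 7.63 CPM in TT and stood at 21.6 and 26.7 CPM in YT. On CPM all 3 libraries of TT at 8 h lay below those at 0 h, and all 3 of YT above. The YT change of 0.31 did not pass the edgeR test (adjusted p = 0.127). On TPM the YT groups overlapped, with 10.7 to 11.6 at 0 h and 11.5 to 12.9 at 8 h.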

How the results depend on the processing

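In all alternatives the cold comparisons of the gene stayed uncalled, and YT over TT stayed positive. Limma on log2(TPM + 1) gave 1.36 for YT over TT at 0 h and 1.51 at 1 h, and on log2(TPM + 0.1) 1.55 and 1.69, with 2.14 for 8 h. On TPM the sign of some small cold effects turned, with log2(TPM + 1) first and log2(TPM + 0.1) second: 0.21 and 0.25 in TT at 0.5 h, 0.12 and 0.14 in TT at 1 h, -0.074 and -0.080 in YT at 2 h, -0.086 and -0.093 in YT at 4 h. For the difference of responses the values were -0.19 and -0.23 (0.5 h), then -0.043 and -0.040 (4 h). The cause was not tested. Leaving out single libraries gave ranges from -0.12 to 0.058 for TT at 1 h, -0.028 to 0.075 for YT at 0.5 h and -0.0062 to 0.24 for YT at 4 h.

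Over the 7 other settings the adjusted p of TT at 8 h ran from 0.0172 to 0.123 and was under 0.05 in 4. In the 36 edgeR fits without 1 library it ran from 0.0061 to 0.0879 and was under 0.05 in 35. At 2 h in TT the adjusted p fell to 0.00765 without replicate 3 of that group.

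Replicate numbers were treated as names only. Deviations of same-numbered libraries had a median correlation of 0.0032, from -0.25 to 0.23, and 10 of 36 libraries correlated best with their own number. The labels do not say whether same-numbered plants were handled together. With a replicate block the difference of responses at 8 h was 0.79. Of the neighbours, 0 were then called in either direction at 0.5 h (DESeq2 called 1), and 2 were YT-higher at 1 h. DESeq2 called 2 YT-higher at 1 h and 2 at 2 h, and a window of 20 models on either side held 2 at 0 h. At the depth of these libraries, 8 of the 20 neighbours had too few reads to test.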
